A study of Mus musculus with 6 samples.

Results

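A set of 48 genes of the lysosome, its proton pump and autophagy were followed in activated mouse CD4 T cells with and without added Blimp-1, a transcriptional repressor encoded by Prdm1. The 48 members were taken by gene symbol from a list of names, which was chosen with earlier results of these data known. They were found among 22415 genes (29868 transcripts) of an RNA-seq table in FPKM, reads scaled by transcript length and sequencing depth. The deposited symbol gave 41 of them directly and 5 after an appended note was removed (Npc2, Atp6v1d, Atg3, Atg5 and Atg12). Ctsl and Atp6v0e, listed under other symbols, were found by transcript accession. A minimum of 1 FPKM in any 3 of the 6 libraries left 47 members for testing. Cd63, a tetraspanin of late endosomes, lay at 0 to 0.442 FPKM and was not.

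All cells came from wild-type C57/BL6 mice, and the sources used here give neither age nor sex. T cells of naive surface type, CD4+ and CD62L+, low in CD44 and without CD25, were isolated from lymphoid organs (spleen, lymph node). Plate-bound antibodies against CD3 and CD28 (10 ug/ml) activated them. Antibodies to IL-4 and IFN-gamma blocked polarisation, the state labelled Th0. After 36 hours (another label gives 3 days) the cells received the MigR1 retrovirus, empty in 3 libraries and carrying Blimp-1 cDNA in 3. After 2 more days GFP+ cells were sorted, so the control cells also carried the vector and its GFP marker. About 0.5 M cells were sorted, and the labels speak of 3 independent biological replicates. The added Blimp-1 came from the retroviral vector, not from the cells' own Prdm1 gene.

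Lysosomes are acidic compartments in which hydrolases such as the cathepsins break down proteins, lipids and sugars. The V-ATPase, with a membrane-bound V0 sector and a cytosolic V1 sector that hydrolyses ATP, pumps in the protons. Macroautophagy wraps cytosol and organelles in a double membrane and delivers them to lysosomes. In T cells it supports survival and metabolism after activation. The transcription factors TFEB and TFE3 activate many of these genes through an E-box of the letters CACGTG, often within the longer TCACGTGA.

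Promoter sequences from RefSeq, on assembly GRCm38.p6, were found for 38 of the 48 members, each a window of 300 bases around the start of the gene. The deposited values were made on another build, mm9. CACGTG, which reads the same on both strands, occurred in 12 of the 38 windows (31.6%), against 8.09% of the windows of all 27025 genes. TCACGTGA, which contains CACGTG, occurred in 7 (18.4%: Atg3, Atp6v0d1, Atp6v0e, Atp6v1a, Ctsa, Ctsd and Mcoln1), against 1.12% of all. AGNGAAAG, a motif of the type bound by Blimp-1, was searched on both strands and occurred in 2 (5.26%, Laptm4a and Tfeb), against 9.91% of all. A match is a description of the letters and shows no binding. Shown first are stretches upstream of the start of 5 members with TCACGTGA. Lamp1 and Atp6v0d1 follow, as the members whose values did not overlap between the vectors. Each is written 5′ to 3′ on the strand of its gene, with the matched E-box letters in capitals: TCACGTGA for all but Lamp1, and CACGTG for Lamp1.
Ctsa (chr2:164833713-164833772, plus strand): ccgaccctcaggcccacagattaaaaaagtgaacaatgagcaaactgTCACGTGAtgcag
Ctsd (chr7:142387893-142387952, minus strand): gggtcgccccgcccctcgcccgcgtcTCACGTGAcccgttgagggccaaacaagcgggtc
Mcoln1 (chr8:3500447-3500506, plus strand): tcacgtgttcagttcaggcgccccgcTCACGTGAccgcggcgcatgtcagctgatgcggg
Atp6v1a (chr16:44139358-44139417, minus strand): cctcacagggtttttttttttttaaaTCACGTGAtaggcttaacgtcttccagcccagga
Atg3 (chr16:45158731-45158790, plus strand): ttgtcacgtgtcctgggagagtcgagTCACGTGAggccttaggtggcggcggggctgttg
Lamp1 (chr8:13159091-13159160, plus strand): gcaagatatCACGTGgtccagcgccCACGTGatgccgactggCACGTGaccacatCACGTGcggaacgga
Atp6v0d1 (chr8:105566061-105566090, minus strand): taagagccaggccctactgcggTCACGTGA
The Lamp1 stretch held 4 copies of CACGTG within 70 bases. In the Ctsa stretch the E-box began 13 bases before the start, in Mcoln1 46, in Atg3 72, in Ctsd 99 and in Atp6v1a 132. In Atp6v0d1 it began 4 bases before the start and ran across it.

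Prdm1, the check of the vector, was at 0.996, 2.03 and 1.38 FPKM in the empty vector libraries, the controls, and 9.91, 12.8 and 9.45 with Blimp-1, in replicates 1, 2 and 3. The depth, estimated from low values, was about 17.1 to 38.5 M reads in controls and 33.7 to 46.6 M in Blimp-1 libraries. Libraries were paired by replicate number, and same-numbered libraries deviated together from their vector means. Empty vector replicate 3 stood apart on the first principal component. It lay at -34.21, with the other libraries at -12.46 to 22.73. T cell markers (7 of 7 found) summed to 1930 to 2289 FPKM in the controls and 1880 to 2142 with Blimp-1.

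With all 6 libraries, no difference of the 47 tested members with added Blimp-1 passed the adjusted test. In limma's test on log2(FPKM + 1) with Benjamini-Hochberg adjustment over all 10874 tested genes, 0 members were called higher and 0 lower, as 0.0% of all genes were in each direction. No member had an unadjusted p below 0.05 either, against 1.13% of all genes (123). Prdm1 itself, at a log2 fold change of 2.26, was not called in this fit (limma adjusted p 0.063). With the replicate number as a block, again 0 members were called in each direction, and 0.0092% of all genes were called higher (Prdm1) and 0.0092% lower (Igfbp4). At an unadjusted p below 0.05 in that fit stood 4 members higher and 4 lower (8.51% each), against 9.67% and 10.4% of all genes. These shares lie near the background of all genes.

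The estimated differences were small. The median log2 fold change of the 47 was -0.02, beside -0.01 for all tested genes, and 22 were positive and 25 negative. They ran from -0.26 (Gusb) to 0.53 (Laptm4b). The median size without its sign was 0.09, against 0.11 for all genes, and the median SD within a vector was 0.16, against 0.21. The difference was larger than the gene's own within-vector SD for 10 of the 47 (21.3%) and for 19.5% of all genes. These are bulk libraries, in which fewer cells of a type and less RNA per cell cannot be told apart.

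**Figure D1:**
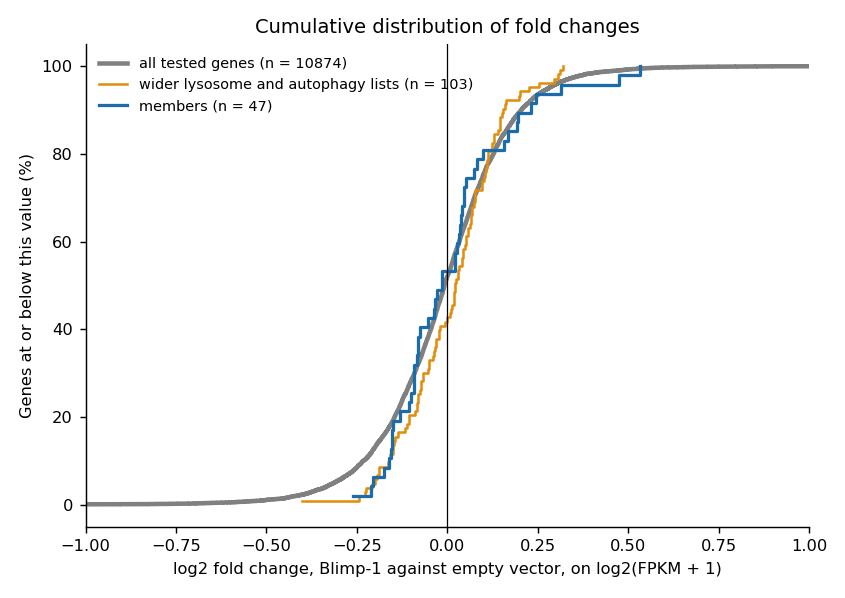
Cumulative share of genes (percent, vertical axis) by log2 fold change of Blimp-1 against empty vector on log2(FPKM + 1) (horizontal axis), for all 10874 tested genes, the 103 tested genes of wider lysosome and autophagy lists and the 47 tested members. The curves lie close together, with medians of -0.01, 0.02 and -0.02.

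Compared pair by pair, 11 members were higher with Blimp-1 in 3 of 3 pairs (23.4%) and 13 were lower (27.7%). Over all tested genes the shares were 22.9% and 22.8%. After quantile normalization of the libraries the counts were 15 and 9, beside 24.8% and 20.3% of all genes. Without overlap between the vectors, 0 members were higher and 2 were lower, Lamp1 and Atp6v0d1 (4.26%), beside 2.35% higher and 2.37% lower over all genes. By median, the pairs differed by -0.00, -0.04 and 0.03 in replicates 1, 2 and 3. Pair 3 held the largest difference for 31 of the 47 members (66.0%) and for 53.1% of all genes.

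**Figure D2:**
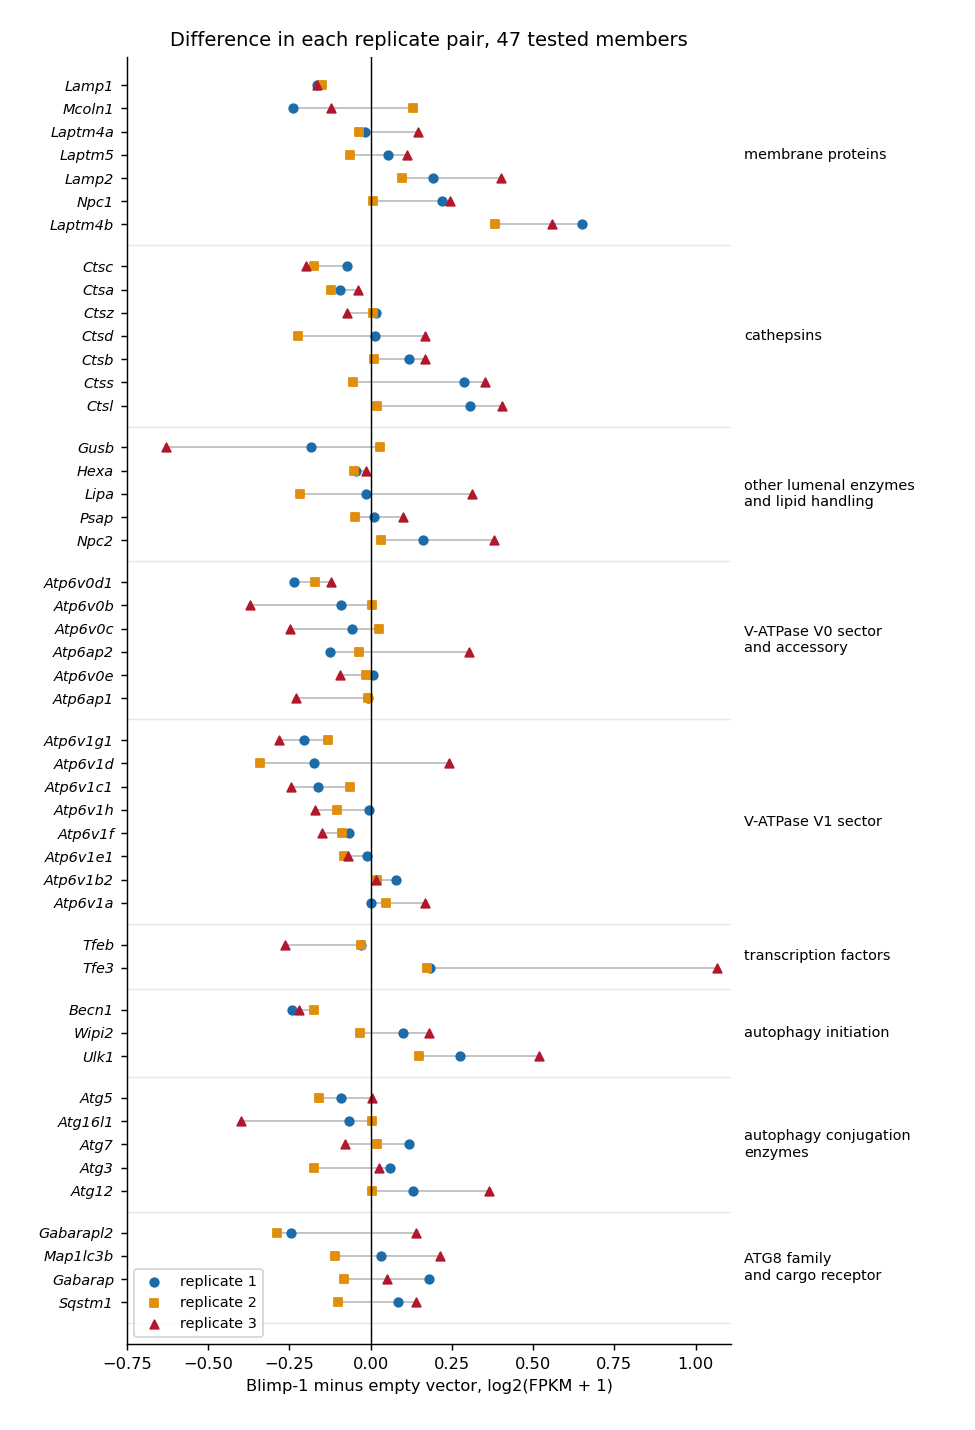
Difference in log2(FPKM + 1), Blimp-1 minus empty vector (horizontal axis), in replicate pairs 1 (circle), 2 (square) and 3 (triangle), for the 47 tested members grouped by role, with a line from lowest to highest pair. Of the 47, 23 straddle 0, and 5 of the 8 V1 sector genes lie below it in every pair, beside 22.8% of all tested genes.

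The lysosomal membrane proteins did not move one way. Lamp1, the most used marker of the lysosomal membrane, was at 63.7, 66.1 and 65.5 FPKM in the controls and 56.7, 59.5 and 58.3 with Blimp-1. Every Blimp-1 library lay below every control. Mean levels were 65.1 ± 1.25 and 58.2 ± 1.43 FPKM (SD, n = 3 each), and the log2 fold change was -0.16 (SE 0.11, or 0.06 with the block). Here and below, an SE is from the fit without the block unless stated. Limma's adjusted p was 0.998, and 0.226 with the block (unadjusted p = 0.036). It was named after its values were seen, as were Laptm4b, Atp6v0d1 and Atp6v0c.

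Lamp2, its partner protein, which also acts in chaperone-mediated autophagy, was at 17.6, 18.6 and 13.0 FPKM in the controls and 20.2, 19.9 and 17.5 with Blimp-1. It was higher in each pair, though the vectors overlapped (log2 fold change 0.23, SE 0.16, or 0.08 with the block, limma adjusted p with the block 0.221). Without empty vector replicate 3 the value was 0.08, and without pair 3 in the fit with the block it was 0.15. Each value without 1 library, here and below, is from the fit without the block, with that library's same-numbered partner kept. Laptm4b, a late endosomal protein that recruits amino acid transporters, had the largest difference of the 47. It was at 4.11, 3.51 and 2.06 FPKM in the controls and 7.04, 4.88 and 3.51 with Blimp-1. Within each pair the Blimp-1 library was the higher, while its replicate 3 equalled control replicate 2. The log2 fold change was 0.53 (SE 0.27), or 0.32 without empty vector replicate 3, with a ratio of means of 1.59. Limma's adjusted p was 0.163 with the block, where the SE was 0.08. At this level its reads were few, about 67 in the lowest library and 563 in the highest by estimated depth.

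Laptm5, which sends the T cell receptor zeta chain to lysosomes, was the most abundant member, at 569, 651 and 541 FPKM in the controls and 591, 623 and 584 with Blimp-1. The ranges overlapped (log2 fold change 0.03, and -0.02 without empty vector replicate 3). Npc1, the membrane transporter that exports cholesterol from lysosomes, was at 18.5, 18.8 and 14.6 FPKM against 21.7, 18.9 and 17.5 with Blimp-1, higher in each pair but by little in pair 2 (0.16, SE 0.15, and 0.05 without empty vector replicate 3). Laptm4a (35.8 ± 3.91 against 36.5 ± 2.47 FPKM) and the calcium channel gene Mcoln1 (13.0 ± 0.661 against 12.4 ± 1.49; SD, n = 3 each) had a direction that varied with the pair.

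**Figure D3:**
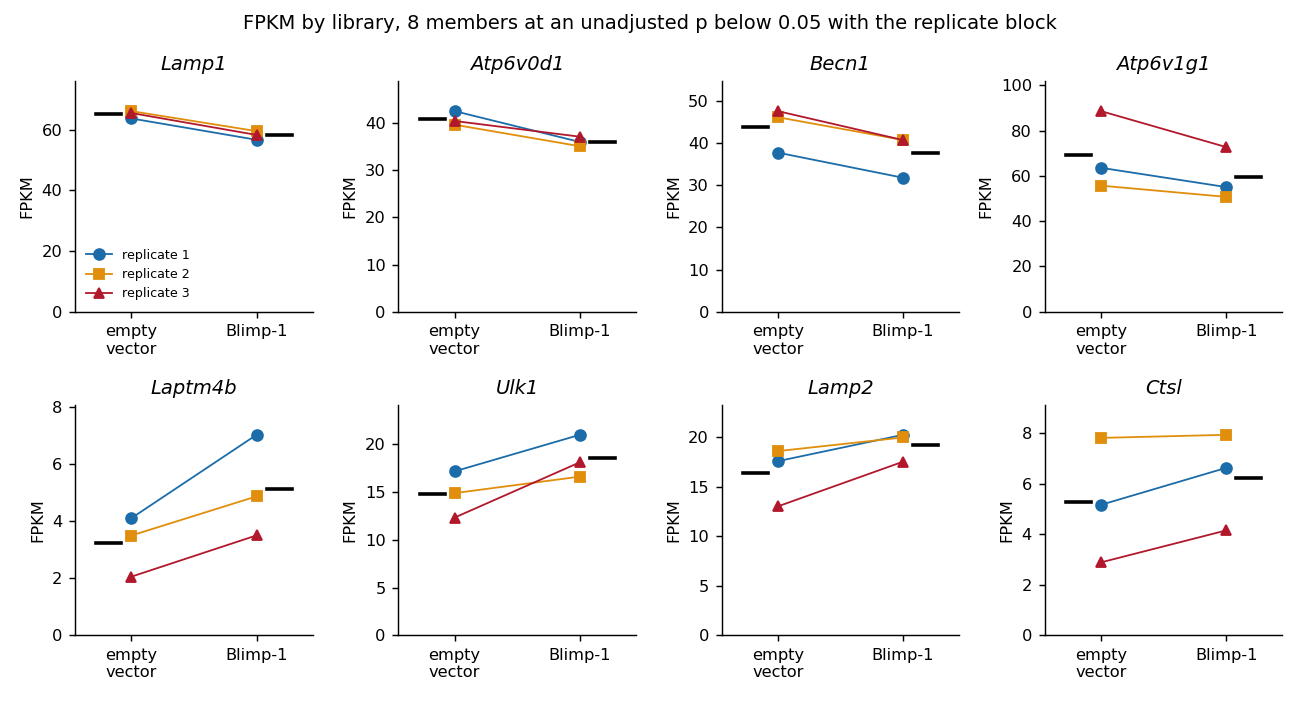
FPKM (vertical axis, from 0) of 8 members in each library, with lines joining same-numbered empty vector and Blimp-1 libraries and short bars at the means. Lamp1, Atp6v0d1, Becn1 and Atp6v1g1 were lower and Laptm4b, Ulk1, Lamp2 and Ctsl higher in each of the 3 pairs. Only Lamp1 and Atp6v0d1 of the 8 show no overlap between the vectors.

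Of the cathepsins, 2 of 7 were higher in each pair and 2 lower (28.6% each), beside 22.9% and 22.8% of all genes. Their median log2 fold change was -0.01. Ctsl, a cysteine protease, was at 5.16, 7.80 and 2.89 FPKM in the controls and 6.62, 7.93 and 4.15 with Blimp-1. Pair 2 was nearly level and the replicates spread more widely than the vectors (log2 fold change 0.24, SE 0.33, or 0.09 with the block, limma adjusted p with the block 0.245). Without empty vector replicate 3 the sign turned (-0.06), but without pair 3 and with the block the value was 0.16. Ctss, the protease best known for trimming the MHC class II invariant chain, was at 59.5, 87.5 and 48.6 FPKM against 72.9, 84.2 and 62.3 with Blimp-1. It was higher in 2 pairs and lower in pair 2 (0.20, SE 0.23, and 0.0086 without empty vector replicate 3).

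Ctsc, which activates granule serine proteases, was at 14.7, 20.5 and 21.9 FPKM in the controls and 13.9, 18.1 and 19.0 with Blimp-1. It was lower in each pair with overlapping ranges (-0.15, SE 0.19, and -0.02 without Blimp-1 replicate 1). The aspartic protease Ctsd, highest of its group, was at 93.6, 112 and 75.3 FPKM against 94.6, 95.4 and 84.7. Its pairs disagreed in sign (-0.01). That value became 0.12 without empty vector replicate 2 and 0.04 without Blimp-1 replicate 3. Ctsa, which protects other lysosomal enzymes, was at 34.6 ± 4.90 and 32.5 ± 3.77 FPKM, lower in each pair. Ctsb was at 45.2 ± 4.09 and 48.5 ± 4.92 FPKM, higher in each. Ctsz was at 43.0 ± 4.86 and 42.5 ± 4.47 FPKM (SD, n = 3 each, empty vector first).

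Among other proteins of the lumen, Npc2, which hands cholesterol to NPC1, was at 201, 204 and 133 FPKM in the controls and 225, 208 and 173 with Blimp-1. It was higher in each pair, and the low control was empty vector replicate 3 (log2 fold change 0.19, SE 0.20). Without that library the value was -0.01, and without pair 3 in the fit with the block it was 0.10. Gusb, the beta-glucuronidase, was at 6.53, 7.40 and 11.6 FPKM against 5.63, 7.57 and 7.16 with Blimp-1. Here the same control library was the highest and pair 2 ran the other way (-0.26, SE 0.22, and -0.04 without that library). The sphingolipid activator precursor Psap (154 ± 15.9 and 156 ± 13.6 FPKM), the hexosaminidase subunit Hexa (22.5 ± 2.69 and 21.9 ± 2.40) and the lipase Lipa (30.5 ± 9.72 and 30.3 ± 4.42; SD, n = 3 each) had nearly equal means. Hexa was lower in each pair, by at most 0.05 on the log2 scale.

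The V-ATPase members leaned low. Of the 14 members, 11 had a negative log2 fold change, beside 52.1% of all genes, and the median was -0.09. Lower in each pair were 7 of 14 (50.0%), beside 22.8% of all genes, and higher in each were 2 (14.3%), beside 22.9%. Their summed level was 640, 655 and 704 FPKM in the controls and 605, 614 and 644 with Blimp-1. Each pair had the lower sum with Blimp-1, and the ranges overlapped. Total FPKM over all genes was also lower with Blimp-1 in each pair. As a share of that total, the members were at 0.123, 0.133 and 0.128% against 0.118, 0.129 and 0.122%. After quantile normalization 10 of the 14 were negative, beside 49.1% of all genes, with a median of -0.04 and 5 lower in each pair, beside 20.3%. Without empty vector replicate 3, 10 were negative, beside 51.3%, with a median of -0.04. Named by accession, 10 were negative, beside 52.2%, with a median of -0.09. None of the 14 passed limma's test in either fit. The lean was not shared by the 4 other tested V-ATPase genes, 2 positive and 2 negative with a median of -0.0003.

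In the V0 sector and its accessory proteins, Atp6v0d1, the subunit that links V0 to the central stalk, was at 42.5, 39.6 and 40.4 FPKM in the controls and 36.0, 35.1 and 37.1 with Blimp-1. The vectors did not overlap (log2 fold change -0.18, SE 0.11, or 0.06 with the block, limma adjusted p with the block 0.222). Atp6v0e, the most abundant of this sector, was at 81.9, 80.4 and 92.7 FPKM against 82.4, 79.5 and 86.8. Its ranges overlapped and the log2 fold change was -0.03, or 0.03 without empty vector replicate 3. Atp6v0b was at 46.9 ± 6.19 and 41.8 ± 0.889 FPKM, Atp6ap1 at 28.9 ± 0.105 and 27.3 ± 2.46, and Atp6ap2, also known as the prorenin receptor, at 16.0 ± 2.68 and 16.4 ± 0.711 (SD, n = 3 each). Atp6ap1 was lower in each pair, and by over 0.2 on the log2 scale in pair 3 alone (-0.23).

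Atp6v0c encodes the proteolipid of the rotating ring, and its value depends on a near-identical pseudogene transcript that the table lists under the same symbol. Together they gave 71.0, 63.7 and 83.5 FPKM in the controls and 68.2, 65.0 and 70.2 with Blimp-1 (-0.09). The gene's own transcript alone gave 71.0, 56.9 and 20.8 FPKM against 68.2, 27.9 and 45.0. The pseudogene transcript gave 0.0093, 6.84 and 62.7 FPKM against 0.00062, 37.1 and 25.2. The sum was steadier between libraries than either transcript, so the split between them is uncertain here. With the gene's own transcript, the log2 fold change was 0.0060.

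In the V1 sector, 5 of 8 genes were lower in each pair (Atp6v1c1, Atp6v1e1, Atp6v1f, Atp6v1g1 and Atp6v1h), beside 22.8% of all genes. Atp6v1a and Atp6v1b2, the catalytic A and the B subunit of the ATP-hydrolysing head, were higher in each, as 22.9% of all genes were. Some of these differences were tiny, as in pair 1 for Atp6v1h (-0.0033), Atp6v1e1 (-0.010) and Atp6v1a (0.0022). Atp6v1g1, a peripheral stalk subunit, was at 63.6, 55.7 and 88.7 FPKM in the controls and 55.1, 50.8 and 72.8 with Blimp-1. Each pair had the lower value with Blimp-1, yet the replicates were further apart than the vectors (log2 fold change -0.21, SE 0.21, or 0.06 with the block, limma adjusted p with the block 0.194). Without empty vector replicate 3 the value was -0.017, and without pair 3 in the fit with the block it was -0.17. Atp6v1f, the most abundant subunit, was at 108, 108 and 134 FPKM against 103, 101 and 120 (-0.10, SE 0.14). Atp6v1d was at 67.9, 103 and 55.1 FPKM against 59.99, 81.1 and 65.3. It was lower in pairs 1 and 2 and higher in pair 3 (-0.09, SE 0.24), and at 0.16 without empty vector replicate 2.

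Of the other V1 genes, Atp6v1c1 was at 19.9 ± 2.41 and 17.8 ± 2.19 FPKM, Atp6v1e1 at 39.7 ± 1.66 and 38.2 ± 0.566, and Atp6v1h at 16.7 ± 0.432 and 15.7 ± 1.37. Atp6v1a was at 16.8 ± 2.73 and 17.7 ± 2.12 FPKM, and Atp6v1b2 at 22.1 ± 1.32 and 22.8 ± 1.76 (SD, n = 3 each). In the assembled enzyme the A and B subunits are present in more copies than the stalk subunits C, D, F and H. Per length, the transcripts ran in another order, with Atp6v1f highest at a mean of 112 FPKM over the 6 libraries and Atp6v1a at 17.3.

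**Figure D4:**
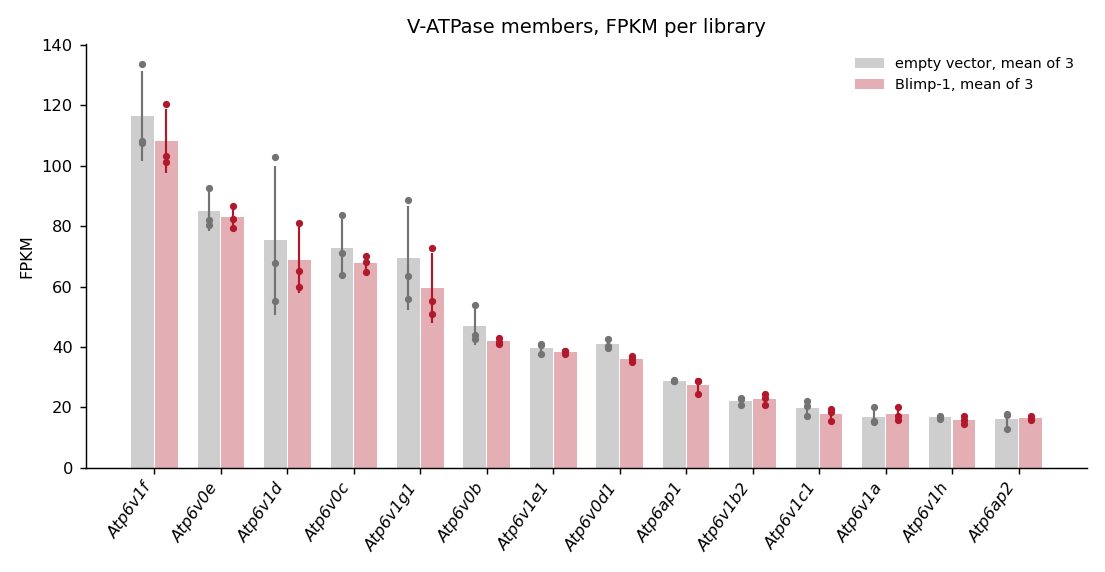
FPKM (vertical axis, from 0) of the 14 V-ATPase members, ordered by their mean over the 6 libraries. Bars are means of 3 libraries, lines their SD and points the libraries, grey for the empty vector and red for Blimp-1. The Blimp-1 mean is the lower for 11 of the 14, with overlapping points in all but Atp6v0d1.

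The 2 transcription factors were at low levels. Tfeb was at 8.47, 9.03 and 10.6 FPKM in the controls and 8.29, 8.83 and 8.67 with Blimp-1. It was lower in each pair, by under 0.05 on the log2 scale in pairs 1 and 2 (log2 fold change -0.11, SE 0.13, and -0.02 without empty vector replicate 3). Tfe3, by the transcripts that carry its symbol, was at 5.35, 2.07 and 1.17 FPKM against 6.21, 2.46 and 3.55 (0.47, SE 0.42). A further 4 Tfe3 transcripts have no symbol in the table. With all 6 transcripts, matched by accession, it was at 7.45, 8.54 and 7.70 FPKM against 7.47, 7.85 and 8.46 (log2 fold change 0.0047, SE 0.12). The difference under the symbol was not seen in the sum of all the gene's transcripts. The 7 members with TCACGTGA in the promoter window had log2 fold changes from -0.18 to 0.07, with a median of -0.03. The median of the 30 tested members with a window but without it was 0.02.

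**Figure D5:**
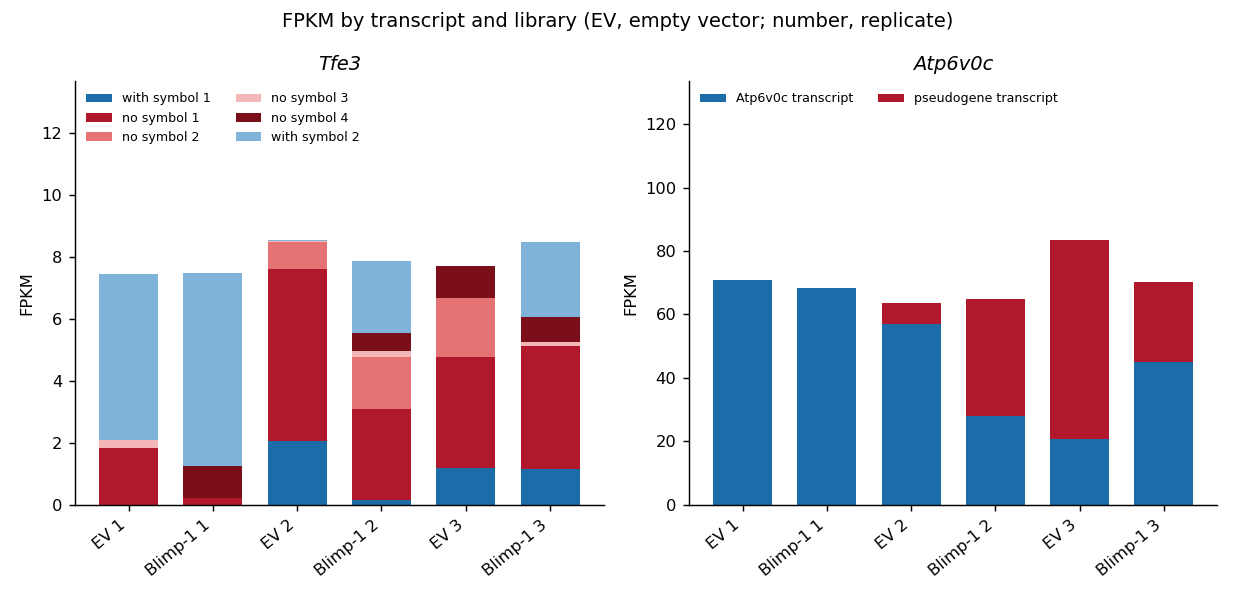
FPKM (vertical axis) stacked by transcript in each library, paired by replicate. For Tfe3, blue transcripts carry the symbol in the deposited table and red ones do not. For Atp6v0c, blue is the gene's transcript and red the pseudogene's. The whole stacks differ less between libraries than their parts do.

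Genes that start autophagy differed in direction. Ulk1, the kinase that triggers it, was at 17.2, 14.9 and 12.3 FPKM in the controls and 21.0, 16.6 and 18.1 with Blimp-1. It was higher in each pair, with the lowest Blimp-1 library below the highest control (log2 fold change 0.31, SE 0.16, and 0.20 without empty vector replicate 3, ratio of means 1.26). Limma's adjusted p was 0.998, and 0.186 with the block, where the SE was 0.09. Becn1, the scaffold of the lipid kinase complex that acts after ULK1, was at 37.7, 46.1 and 47.6 FPKM against 31.8, 40.7 and 40.7. Its difference was alike in the 3 pairs, at -0.24, -0.18 and -0.22 on the log2 scale, while the levels overlapped. The log2 fold change was -0.21 (SE 0.16, or 0.06 with the block, limma adjusted p with the block 0.185). Without Blimp-1 replicate 1 the value was -0.10. Wipi2, which reads the lipid that this complex makes, was at 20.2 ± 1.48 and 21.4 ± 1.87 FPKM (SD, n = 3 each).

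The genes that attach ATG8 proteins to membranes had no shared direction. Atg12, a ubiquitin-like conjugate of ATG5, was at 31.5, 32.5 and 23.0 FPKM in the controls and 34.6, 32.6 and 30.0 with Blimp-1. It was higher in each pair, by 0.0059 on the log2 scale in pair 2 (log2 fold change 0.17, SE 0.16). Without empty vector replicate 3 the value was 0.015. Atg5 was at 9.03 ± 1.31 and 8.45 ± 0.837 FPKM, and Atg16l1, which places the conjugate on the membrane, at 14.8 ± 1.47 and 13.2 ± 0.828. The E1-like Atg7 was at 6.19 ± 0.143 and 6.29 ± 0.363 FPKM and the E2-like Atg3 at 17.6 ± 2.40 and 17.2 ± 0.675 (SD, n = 3 each).

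Of the ATG8 proteins that coat the membrane, Gabarap was at 150, 154 and 142 FPKM in the controls and 170, 145 and 147 with Blimp-1. The ranges overlapped (0.05, SE 0.12, and -0.02 without Blimp-1 replicate 1). Gabarapl2 was at 71.2, 94.9 and 72.9 FPKM against 59.96, 77.5 and 80.5. It was lower in pairs 1 and 2 and higher in pair 3 (-0.13, SE 0.17), and at 0.00078 without empty vector replicate 2. Map1lc3b, which encodes LC3B, was at 73.1 ± 5.56 and 75.5 ± 3.88 FPKM. The cargo receptor gene Sqstm1, which encodes p62, was at 80.7 ± 10.8 and 82.7 ± 7.77 (SD, n = 3 each). Transcript levels do not measure the flow of cargo through autophagy.

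Pair 3 carried much of the spread. Empty vector replicate 3 was the lowest control for 26 of the 47 members (55.3%) and for 14 of the 19 lysosomal ones (73.7%), beside 35.6% of all tested genes. That library also had the shallowest estimated depth, at 17.1 M reads, though empty vector replicate 1 was close at 18.1 M. Its Hba-a1, an erythroid marker, was the highest, at 9.83 FPKM against 0.131 to 1.5 in the others. The part of depth and of Hba-a1 in these values was not tested. Without pair 3 and with the block, limma called Laptm4b higher (adjusted p = 0.0072, log2 fold change 0.52). It called Atp6v1d (0.0436, -0.26) and Gabarapl2 (0.0313, -0.27) lower, and both of these were higher with Blimp-1 in the pair left out. The same fit called 3.55% of all genes higher and 4.67% lower, so 1 and 2 of 47 members are no larger a share. It had fewer residual degrees of freedom than the fit with the block on all 6 libraries, which called 0.0092% of all genes in each direction.

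Wider lists of 116 lysosome and autophagy genes, 103 of them tested, gave a similar picture. Neither fit called any. In limma without the block 2 had an unadjusted p below 0.05 (Acp5 and Igf2r), beside 1.13% of all genes. With the block 8 were higher and 10 lower at that level, beside 9.67% and 10.4%. Higher in each pair were 28 (27.2%) and lower 26 (25.2%), beside 22.9% and 22.8%. Without overlap between the vectors, 2 were higher (1.94%) and 3 lower (2.91%), near the 2.35% and 2.37% of all genes. Acp5, the tartrate-resistant acid phosphatase, was at 79.6, 102 and 88.8 FPKM in the controls and 61.6, 74.5 and 67.1 with Blimp-1. No Blimp-1 library reached a control (log2 fold change -0.40, SE 0.14, limma adjusted p 0.998, and 0.163 with the block). Igf2r, the larger mannose 6-phosphate receptor that brings new hydrolases to lysosomes, was at 26.4, 23.5 and 23.5 FPKM against 33.4, 28.1 and 29.9. Here every Blimp-1 library lay above every control (0.31, SE 0.12, limma adjusted p 0.998, and 0.163 with the block).

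Gnptab, which makes the mannose 6-phosphate tag that this receptor binds, was at 13.8, 10.5 and 10.9 FPKM in the controls and 15.3, 13.4 and 15.5 with Blimp-1 (0.31, SE 0.14). It was higher in each pair. M6pr, the smaller receptor, was at 65.9 ± 0.810 and 70.5 ± 2.94 FPKM (SD, n = 3 each) without overlap, named after its values were seen. Flcn, a GTPase regulator that keeps TFEB out of the nucleus in fed cells, was at 5.51, 4.20 and 3.53 FPKM against 8.54, 5.56 and 3.52 (0.29, SE 0.28) by the 1 transcript that carries its symbol, with pair 3 level. With all 4 transcripts, matched by accession, it was at 20.4, 15.7 and 13.7 FPKM against 23.6, 17.1 and 16.0 (0.17, SE 0.20). Atg101, a subunit of the ULK1 complex, was at 14.5, 15.2 and 16.8 FPKM against 12.0, 12.8 and 13.9, without overlap (-0.25, SE 0.12). Wdr45b, of the WIPI family, also showed none (14.0 ± 1.12 and 12.4 ± 0.374 FPKM; SD, n = 3 each) and was named after its values were seen.

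Lamtor2, of the Ragulator complex that holds mTORC1 on the lysosome, was at 66.0, 59.2 and 93.8 FPKM in the controls and 55.3, 54.8 and 74.9 with Blimp-1. It was lower in each pair, and the replicates spread more than the vectors (-0.23, SE 0.21, limma adjusted p with the block 0.193). The complex's 4 other genes, Lamtor1, Lamtor3, Lamtor4 and Lamtor5, were lower in each pair too, as 22.8% of all genes were, with log2 fold changes of -0.16, -0.22, -0.08 and -0.16, and were named after their values were seen. Without pair 3 and with the block, limma called Igf2r (adjusted p = 0.0295) and Flcn (0.0112, by its 1 named transcript) higher and Acp5 (0.0048) lower, beside the shares of all genes given above for that fit.

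Markers of other cell types, which can be rich in lysosomes, were low beside the T cell markers. Macrophage and monocyte markers summed to 3.97 to 13.6 FPKM in the controls and 2.93 to 13.8 with Blimp-1, with Csf1r and Cd14 at no more than 0.0186 and Ccr2, which activated T cells also express, at up to 12.4. Dendritic cell markers summed to at most 1.62 FPKM and granulocyte and mast cell markers to at most 1.05. B cell markers summed to 1.63 to 4.90 and 1.55 to 6.04 FPKM. NK cell markers summed to 3.34 to 28.4 and 13.7 to 35.3 FPKM, with Ncr1 at 0 in all 6 libraries and Klrd1, which activated T cells can express, making up most of the rest. The CD8 T cell markers disagreed. Cd8b1 lay at 7.01 to 10.9 FPKM over the 6 libraries and Cd8a at 0.100 to 0.169.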

How the data were processed

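Values were deposited by the authors as 1 FPKM per RefSeq transcript and library. The table names no unit, and FPKM was taken from the values and from the submitters' processing notes, which name CASAVA 1.8.2, Cufflinks 2.2, Partek 6.6 and mm9. The sources used here give no aligner, filter or strand setting. Values of 0 may be failed estimates. Transcript FPKM was summed per deposited symbol, and 1138 transcripts had none. Depth was estimated from the lowest values of genes with 1 transcript. Genes reaching 1 FPKM in 3 or more libraries were tested with limma 3.58.1 (R 4.3.3) on log2(FPKM + 1), two-sided, with a mean-variance trend, no term besides the vector, and p-values adjusted by Benjamini-Hochberg at 0.05. The scale understates changes of low genes.

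Over genes, same-numbered libraries correlated at 0.75, 0.79 and 0.66 in their distance from their vector's mean. No label says what the numbers stand for. They were used as pairs by the plan of the comparison, and an alternative fit included them as a block.

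The members and lists were chosen with earlier results of these data known. Full values were given for the highest member of each role, up to 6 largest median pair differences each way at 5 FPKM or more, Tfeb and Tfe3, and up to 3 each way of the wider lists. Alternatives were pseudocounts, filters, scalings, naming by accession (28736 transcripts matched a RefSeq table), the block, and libraries or pairs left out. The result of 1 gene of the wider lists is not reported here.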

Additional observations from a re-analysis of the deposited data

How the results depend on the processing

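Of 19 alternatives, 10 kept all 6 libraries and 9 left out a library or a pair. Counts of members higher or lower in each pair stayed within 1.5 times, and 0 members were called in every alternative with all libraries. With the replicate block, 1 gene was called higher and 1 lower over all genes, as with naming by accession and the block together, which was chosen after seeing the data. Centring on library medians called 1 gene higher. Leaving out 1 library, 0 to 1 genes were called higher, 0 lower and 0 members. With a pair left out and the block, 1, 1 and 386 genes were called higher and 1, 3 and 508 lower without pairs 1, 2 and 3, with 1 member higher and 2 lower without pair 3 and 0 otherwise. The cause was not tested.

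The members' median log2 fold change was 0.016 after quantile normalization, -0.044 to 0.026 with 1 library left out, and 0.033 without pair 2. Of 24 named members, 14 kept their sign in every alternative. With 1 library left out, 12 of these became over 1.5 times smaller, in fits without the block that kept the library's same-numbered partner. Closest to 0 came Becn1 (-0.096) and Ctsc (-0.019) without Blimp-1 replicate 1, and 10 without empty vector replicate 3: Laptm4b (0.32), Ulk1 (0.20), Tfe3 (0.13), Lamp2 (0.083), Npc1 (0.047), Gusb (-0.039), Tfeb (-0.023), Atp6v1g1 (-0.017), Atg12 (0.015) and Ctss (0.0086). In the same order, those 10 were at 0.52, 0.21, 0.18, 0.15, 0.11, -0.077, -0.028, -0.17, 0.068 and 0.12 without pair 3 and with the block. Atp6v0c was at 0.0060 by accession, with and without the block. After quantile normalization Atp6v0e was at 0.012 and Ctsd at 0.035. Without pair 1 Gabarap was at -0.015, without pair 2 Atp6v1d was at 0.033 and Ctsd at 0.091, and without pair 3 Laptm5 was at -0.0045. With 1 library left out, Atp6v0c ran from -0.18 to 0.011, Atp6v0e from -0.072 to 0.030, Atp6v1d from -0.29 to 0.16, Atp6v1f from -0.18 to 0.00027, Ctsd from -0.16 to 0.12, Ctsl from -0.063 to 0.53, Gabarap from -0.022 to 0.091, Gabarapl2 from -0.21 to 0.00078, Laptm5 from -0.023 to 0.11 and Npc2 from -0.010 to 0.30. An arm of 2 libraries was assumed to vary like the arm of 3. With 4 residual degrees of freedom, or 2 with the block and fewer with a pair also left out, differences could be missed. The fit without the block also missed Prdm1, with a ratio of means of 7.3, so larger differences than those of the members could be missed.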

Other observations

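Several V-ATPase subunits have a second, tissue-restricted gene, and those genes were low here. Of the 11 other V-ATPase genes, 7 did not reach 1 FPKM in 3 libraries. Atp6v1c2 and Atp6v1e2 were listed at 0 in all 6 libraries. Atp6v0d2, the form of osteoclasts and kidney, lay at 0.0356 to 0.230 FPKM, beside 35.1 to 42.5 for Atp6v0d1. Atp6v1b1, the form of kidney and inner ear, lay at 0 to 0.113 FPKM, beside 20.6 to 24.4 for Atp6v1b2. Of the a subunits that anchor the pump in the membrane, Tcirg1 (a3) was the highest, at means of 29.3 FPKM in controls and 29.7 with Blimp-1. Atp6v0a2 followed at 11.3 and 12.0, and Atp6v0a1 at 1.13 and 1.10. Of the relatives of Tfeb and Tfe3, Tfec was listed at 0 in all libraries and Mitf lay at 0.110 to 0.541 FPKM.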
